A study of Homo sapiens with 12 samples.

Results

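The genes of antigen processing and presentation were examined in JJN3, an established human multiple myeloma cell line. They were taken by symbol as 35 genes of the 59276 gene symbols in the expression table. They hold the class I chains with their loading factors and transactivator, the class II chains with their editors and regulators, the MHC-like molecules CD1D and MR1, and IFI30. Proteasome subunits and cathepsins were left out of this set and are given below as neighbouring lists. All 35 symbols were found, but CD1D stayed between 0.00 and 0.06 on the log2 scale in every sample and was never tested.

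Expression was measured by sequencing of total RNA in 4 groups of 3 samples. DMSO cells received the solvent, and MS023 cells received 10 µM MS023, an inhibitor of type I arginine methyltransferases that is not selective for PRMT1, for 3 days. isgCtrl cells carried Cas9 and a control guide, and PRMT1-KO cells carried Cas9 and the guide iPRMT1_1 against PRMT1, the main enzyme that places asymmetric dimethyl marks on arginine. Doxycycline was given to both guide populations for 3 days to switch on the guide, and the knockout rests on this 1 guide. All 4 groups were JJN3, and nothing in the labels says whether the 3 replicates of a group were separate cultures, so the p-values below measure only the spread between these samples.

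Nearly every nucleated cell shows pieces of its own proteins on MHC class I, a heavy chain held by beta-2-microglobulin and loaded in the endoplasmic reticulum with peptides that TAP pumps in. MHC class II pairs an alpha and a beta chain, travels with the invariant chain CD74 to endosomes, and there takes up peptides from swallowed proteins with the help of HLA-DM. Class II is a feature of B cells and other professional presenting cells, where the coactivator CIITA switches it on, and it is usually lost as B cells become plasma cells. T cells read both molecules, CD8 T cells class I and CD4 T cells class II.

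Class II promoters are known for an X box, bound by the RFX complex, and a Y box, bound by NF-Y, at a nearly fixed distance, and CIITA docks on the factors that bind them. The reference promoters of the genes with such a pair are shown first, because these genes are read together below. Each line gives a stretch of the GRCh38.p14 promoter from RefSeq, 5′ to 3′ on the gene's strand, with X box and Y box matches in capitals.
HLA-DRB1, chr6:32589886-32589934, minus strand: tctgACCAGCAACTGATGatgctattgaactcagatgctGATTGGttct
HLA-DRB5, chr6:32530369-32530417, minus strand: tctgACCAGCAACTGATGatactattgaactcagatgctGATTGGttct
HLA-DQB1, chr6:32666737-32666785, minus strand: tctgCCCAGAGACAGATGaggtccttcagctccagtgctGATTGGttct
HLA-DMA, chr6:32953168-32953217, minus strand: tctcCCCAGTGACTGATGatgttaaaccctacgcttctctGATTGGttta
HLA-DOA, chr6:33009650-33009699, minus strand: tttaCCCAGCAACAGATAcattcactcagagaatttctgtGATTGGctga
HLA-DOB, chr6:32817092-32817139, minus strand: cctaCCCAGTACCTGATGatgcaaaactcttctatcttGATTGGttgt

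HLA-DMB and HLA-DQA1, in which the search found no such pair, are shown beside these 6 genes. In HLA-DMB the Y box letters lie further downstream and on the other strand, and in HLA-DQA1 the window held no X box within 2 mismatches and no exact Y box, so its line has no capitals. The letters aattgg near the end of the HLA-DQA1 line differ from the Y box in the first letter only. Its lack of capitals therefore rests on the cutoffs and does not show that the boxes are absent.
HLA-DMB, chr6:32941041-32941123, minus strand: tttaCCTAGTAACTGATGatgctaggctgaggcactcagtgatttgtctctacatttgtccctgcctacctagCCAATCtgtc
HLA-DQA1, chr6:32637296-32637346, plus strand: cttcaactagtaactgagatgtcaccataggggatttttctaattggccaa

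The class I chains HLA-B, HLA-C and HLA-F and their partner B2M, whose values lead the class I results, are shown with other motifs. Their windows held no X box match within 2 mismatches, which again rests on the cutoff and does not show that the box is absent. In these lines capitals mark the kB element (GGGGATTCC, 1 mismatch allowed), the interferon element (GAAANNGAA) and the Y box (GATTGG), on either strand.
HLA-B, chr6:31357225-31357359, minus strand: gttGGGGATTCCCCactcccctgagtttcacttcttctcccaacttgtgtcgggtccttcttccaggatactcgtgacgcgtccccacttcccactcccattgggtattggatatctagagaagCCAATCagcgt
HLA-C, chr6:31272138-31272272, minus strand: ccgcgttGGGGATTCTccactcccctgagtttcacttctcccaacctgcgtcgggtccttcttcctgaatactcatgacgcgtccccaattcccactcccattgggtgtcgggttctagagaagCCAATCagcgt
HLA-F, chr6:29723254-29723388, plus strand: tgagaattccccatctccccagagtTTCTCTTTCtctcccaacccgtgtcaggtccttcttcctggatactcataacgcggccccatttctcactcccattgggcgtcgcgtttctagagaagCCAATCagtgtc
B2M, chr15:44711367-44711477, plus strand: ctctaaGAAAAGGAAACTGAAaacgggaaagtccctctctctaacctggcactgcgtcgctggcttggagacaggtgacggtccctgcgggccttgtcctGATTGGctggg

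The search covered 250 bases before to 50 bases after each RefSeq start, on both strands, in 27305 genes, of which 30 were antigen presentation genes. No window was held for HLA-E, PDIA3, NLRC5, HLA-DRA and CIITA. The X box, searched by its consensus with up to 2 mismatches, was found in 9.84% of all genes and in 14 of the 30. The Y box letters, with no mismatch allowed, were found in 17.9% of all genes and in 15 of the 30, the interferon element in 9.86% and 14, and the kB element in 9.08% and 10. Matches of different motifs were allowed to overlap.

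An X box followed on the same strand by a Y box, 10 to 30 bases further on, was rare. It was found in 19 genes of 27305, or 0.0696%, and 6 of these were the class II genes above, with 21 bases between the boxes in HLA-DRB1, HLA-DRB5 and HLA-DQB1, 22 in HLA-DMA and HLA-DOA, and 20 in HLA-DOB. Of the 12 genes of class II chains, DM, DO and CD74, 11 had a window and 10 of these held an X box. These are letters of the reference genome and not of the JJN3 alleles, and a match does not show that a factor binds.

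**Figure D1:**
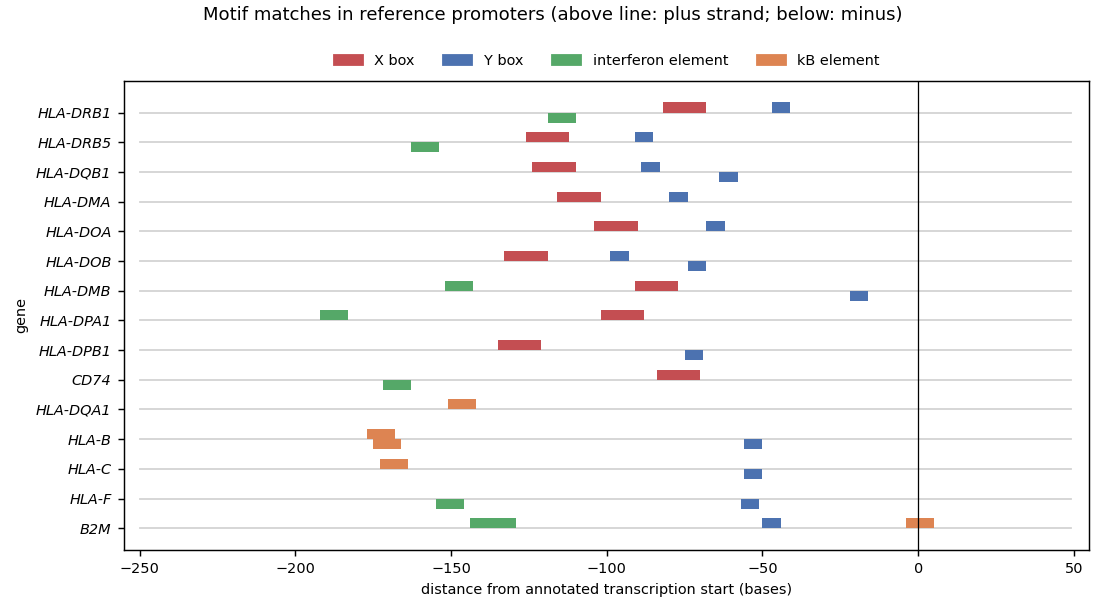
Motif matches in the reference promoters of 15 antigen presentation genes. The x axis is the distance in bases from the annotated start, each grey line is 1 window (HLA-DPA1 has 2, of which the one with an X box is drawn), and boxes above and below the line are matches on the plus and minus strand of the gene. The 6 genes at the top share an X box followed by a Y box 20 to 22 bases further on. HLA-B, HLA-C, HLA-F and B2M hold a Y box match close to the start and no X box match within 2 mismatches.

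The targeted gene and the cell markers were checked first. PRMT1 lay between 8.24 and 8.28 log2(TPM+1) in the PRMT1-KO samples against 9.73 to 9.76 in isgCtrl, where TPM are length-scaled transcript shares of a sample, and between 9.31 and 9.45 in the DMSO and MS023 samples. All 8 plasma cell and myeloma markers were above 1 in some sample, while none of the 4 B cell, 4 T cell and 4 dendritic cell markers was. Single markers of other cell types were above 1 in some sample, 1 of 3 for NK cells (NCAM1, at most 2.43), 1 of 4 for monocytes (CD14, 1.63), 3 of 4 for fibroblasts (COL1A1, 2.82), 1 of 3 for endothelium (PECAM1, 3.07) and 2 of 3 for erythroid cells (HBA1, 3.92). Replicates of a group correlated at 0.9933 to 0.9957 over all genes. Per the labels each sample had more than 60000000 read pairs, but TPM sum to a fixed total, so the depth of a single sample and the counts behind a value are not known here.

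In DMSO cells the class II chains together made up 5542 ± 40.6 TPM (SD, n = 3) and the class I heavy chains, HLA-B, HLA-C, HLA-E, HLA-F and HLA-G, 2323 ± 62.7 TPM. B2M alone stood at 7355 ± 116 TPM. Of single class II genes HLA-DRA stood highest, at 2146 ± 23.1 TPM, and the invariant chain CD74 stood at 1898 ± 64.0 TPM. On this length-scaled level the heavy chains rank HLA-B, HLA-C, HLA-E, HLA-F and HLA-G from high to low, and between neighbours in this order the 3 samples did not overlap in any group. MHC genes vary between people, so levels between genes also rest on how well reads of the JJN3 alleles matched the reference transcripts, which was not tested.

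The first comparison asked what MS023 did to these genes. A gene counted as called when its limma adjusted p was under 0.05 and its log2 fold change beyond 0.48 in either direction. MS023 raised 4 of 5 class I heavy chains, the lectin chaperone CALR with its partner PDIA3, the peptide trimmer ERAP2, HLA-DMA and HLA-DOB of the class II editors, CD74 and the endosomal thiol reductase IFI30, and lowered RFXAP. In all 12 of the 34 genes tested were called (35.3%), where 30.9% of all 12903 genes tested were. Of these, 11 rose (32.4%), beside 11.6% of all genes, and 1 fell (2.94%), beside 19.3%. Their median log2 fold change was 0.30, while that of all genes was -0.11. Cell markers moved as well. The 8 plasma cell markers summed to 1150 to 1200 TPM in MS023 and 716 to 755 in DMSO. Of these, SLAMF7 had a mean log2(TPM+1) of 5.73 against 3.37 and XBP1 8.96 against 7.81. SDC1, PRDM1, IRF4 and MZB1 also had higher means. CD38 was lower, at 1.69 against 2.57, and TNFRSF17 stood at 7.38 against 7.42. The 3 endothelial markers summed to 5.38 to 7.45 TPM against 1.09 to 2.3. In this sum PECAM1 had a mean log2(TPM+1) of 2.92 against 1.38. The other endothelial markers stayed near 0, CDH5 at 0.055 against 0.061 and VWF at 0.072 against 0.067. The part of these markers in the values below was not tested. In bulk RNA, fewer cells expressing a gene and less RNA per cell cannot be told apart.

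Of the 5 class I heavy chains, 4 rose and HLA-G was not called. HLA-B, one of the chains that present peptides to CD8 T cells, read 10.27, 10.30 and 10.33 log2(TPM+1) in DMSO and 11.07, 11.11 and 11.05 in MS023. HLA-C, which is also read by killer-cell receptors, went from 9.77, 9.77 and 9.86 to 10.61, 10.63 and 10.61. HLA-E, the ligand of the NKG2A receptor, went from 6.96, 7.03 and 7.05 to 7.77, 7.73 and 7.81. In each of these 3 genes every MS023 sample was well above every DMSO sample. How many of all genes had no overlap between MS023 and DMSO was not counted. Of the 12903 genes tested, 7286 had an unadjusted p under 0.05 by limma. A lack of overlap here and below therefore describes the single gene and does not set it apart from other genes.

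HLA-F, which is best known as an open form without peptide, went from 5.41, 5.37 and 5.50 to 6.37, 6.32 and 6.38. The log2 fold changes were 0.78 ± 0.0584 (SE) for HLA-B, 0.81 ± 0.0602 for HLA-C, 0.76 ± 0.0624 for HLA-E and 0.93 ± 0.0655 for HLA-F, with limma adjusted p-values between 2.12e-04 and 3.49e-04. HLA-G, near the lower limit, read 1.04, 1.57 and 1.09 in DMSO and 1.23, 1.01 and 0.65 in MS023, and the groups overlapped. Summed over the 5 heavy chains, which share long stretches of sequence among which reads can be split, MS023 cells had 4027 ± 46.7 TPM and DMSO cells 2323 ± 62.7 TPM. The log2 fold change of that sum was 0.79.

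B2M, the light chain of every class I molecule, rose less, from 7355 ± 116 to 10069 ± 264 TPM. It read 12.83, 12.87 and 12.84 in DMSO and 13.34, 13.28 and 13.28 in MS023, with no overlap. Its log2 fold change of 0.45 ± 0.0586 passed the adjusted p (0.00165, limma) and missed the fold limit.

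Of the 7 genes of peptide transport and loading 2 were called, both higher. CALR, the calcium-binding chaperone that holds new heavy chains, read 9.37, 9.35 and 9.38 in DMSO and 10.33, 10.38 and 10.39 in MS023, a log2 fold change of 1.00 ± 0.0574 (limma adjusted p = 1.16e-04). PDIA3, the disulphide isomerase of the loading complex, went from 7.06, 7.15 and 7.09 to 7.62, 7.71 and 7.65, a change of 0.56 ± 0.0632. ERAP2, an aminopeptidase that trims peptides to length, went from 2.56, 2.73 and 2.67 to 3.41, 3.70 and 3.69, a change of 0.95 ± 0.101. The samples of both groups stood apart in all 3 genes.

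The pump and the other loading factors were not called. TAP1, which with TAP2 forms the peptide pump, had a log2 fold change of 0.04 ± 0.0602 and overlapping samples. TAP2 had 0.35 ± 0.101 and CANX, the membrane-bound chaperone, 0.32 ± 0.102, both past the adjusted p (0.0297 and 0.0429, limma) but under the fold limit. TAPBP (tapasin), its relative TAPBPL and the trimmer ERAP1 gave 0.21, -0.18 and -0.46, none past the adjusted p.

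**Figure D2:**
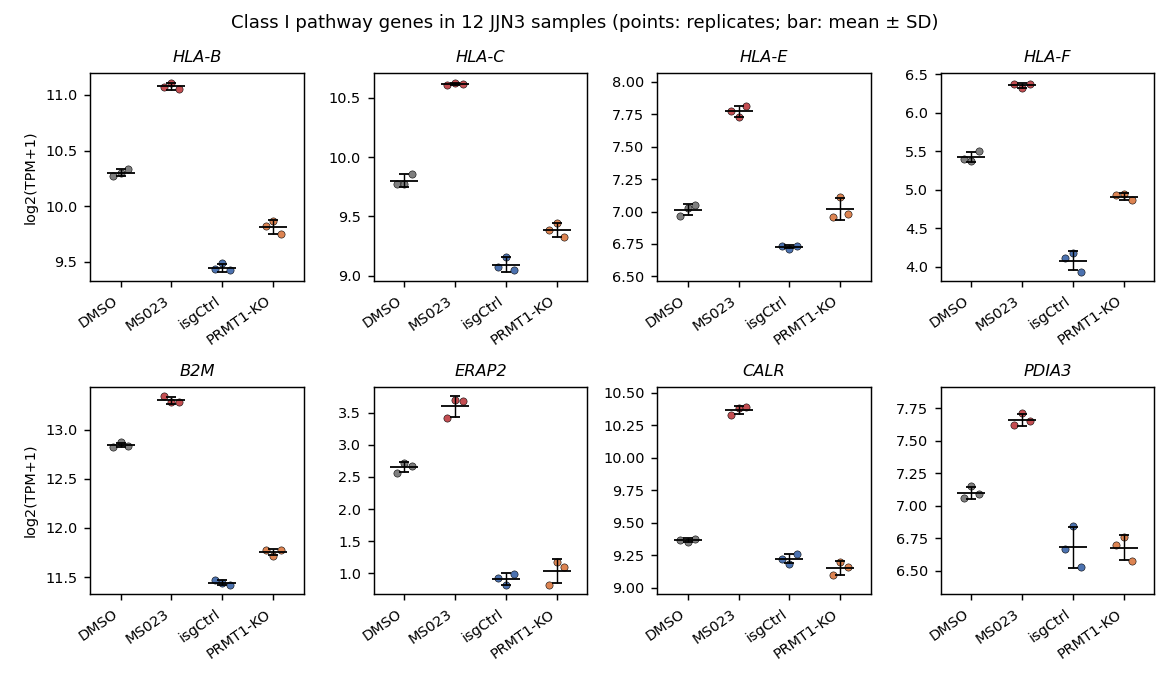
Class I pathway genes in the 12 samples. Each panel is 1 gene, the y axis is log2(TPM+1) on a scale of its own, points are the 3 replicates of each group and the bar is their mean ± SD. In HLA-B, HLA-C, HLA-F, B2M and ERAP2 the MS023 samples are highest and the isgCtrl and PRMT1-KO samples lie below DMSO, while the CALR and PDIA3 samples of isgCtrl and PRMT1-KO overlap below those of MS023.

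Among class II genes, 3 of the 5 editors and invariant chain were called under MS023, all higher. None of the 7 chains was called by limma, although 5 passed the adjusted p upwards (5 also had an unadjusted p under 0.05), and their log2 fold changes ran from 0.00 (HLA-DPA1) to 0.46 (HLA-DRB1). Their sum went from 5542 ± 40.6 to 6745 ± 77.9 TPM. The ratio of class II chain to class I heavy chain TPM was 2.39 ± 0.0469 in DMSO and 1.67 ± 0.0336 in MS023, with no overlap.

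HLA-DMA, the alpha chain of the DM editor that pries the placeholder peptide out of class II, read 7.06, 7.15 and 7.15 in DMSO and 7.95, 7.88 and 7.89 in MS023, a log2 fold change of 0.79 ± 0.0633 (limma adjusted p = 3.19e-04). Its partner HLA-DMB had a change of -0.02 ± 0.0658 and overlapping samples. HLA-DOB, a chain of the DO inhibitor of DM, read 1.18, 1.21 and 0.94 in DMSO and 1.86, 1.56 and 1.88 in MS023, a change of 0.66 ± 0.123 near the lower limit of the table. Its partner HLA-DOA read 2.79, 2.74 and 3.03 against 2.12, 2.16 and 2.70, each MS023 sample below each DMSO sample, with a change of -0.52 ± 0.178 that missed the adjusted p (0.0521, limma). It was called with the stricter filter (0.0408), the trend fit (0.0401) and the fit over all 12 samples (0.0124).

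CD74, the invariant chain, read 10.83, 10.93 and 10.91 in DMSO and 11.51, 11.39 and 11.53 in MS023, a log2 fold change of 0.59 ± 0.0687. IFI30, which reduces disulphide bonds of proteins in endosomes, went from 7.55, 7.60 and 7.54 to 8.35, 8.33 and 8.31, a change of 0.77 ± 0.0578. Both genes had no overlap between groups, with limma adjusted p-values of 0.00115 and 2.62e-04.

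The regulators did not share a direction under MS023. CIITA, the class II coactivator, read 3.86, 3.86 and 3.76 in DMSO and 3.24, 3.31 and 3.69 in MS023, a log2 fold change of -0.41 ± 0.129 that passed the adjusted p (0.0408, limma) but not the fold limit. NLRC5, its class I counterpart, read 3.89, 4.37 and 4.21 against 3.55, 3.70 and 3.94, a change of -0.43 ± 0.158 (limma adjusted p = 0.0642) with overlapping samples.

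Of the RFX complex, RFXAP fell by 1.06 on the log2 scale (SE 0.148, limma adjusted p = 0.00217), from 2.27, 2.26 and 2.25 to 1.05, 1.00 and 1.53. RFXANK read 6.86, 7.05 and 7.16 in DMSO and 7.47, 7.55 and 7.34 in MS023, a change of 0.44 ± 0.103 that passed the adjusted p alone. RFX5, its DNA-binding subunit, read 6.91, 6.73 and 6.86 against 6.82, 6.53 and 6.88, with overlapping samples and a change of -0.09. So at the adjusted p alone 2 of the 5 regulators were lower and 1 higher. Among all 12903 genes tested 3922 were lower by that rule and 2378 (18.4%) higher. MR1, which presents vitamin metabolites, had a change of 0.02.

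By the adjusted p alone, 20 of the 34 genes were higher in MS023 (58.8%), beside 18.4% of all genes. None of the alternative filters, scalings, fits and left-out samples ended a call among the 12, except that HLA-DOB was not tested where a gene had to be above 1 in every sample. Without MS023 replicate 3, 4 more genes were called, with log2 fold changes of -0.54 for NLRC5, -0.71 for HLA-DOA, -0.55 for CIITA and 0.49 for RFXANK. NLRC5 was also called without DMSO replicate 1 (-0.57), RFXANK without DMSO replicate 3 (0.50), and ERAP1 (-0.63) and HLA-DRB1 (0.49) without DMSO replicate 2.

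**Figure D3:**
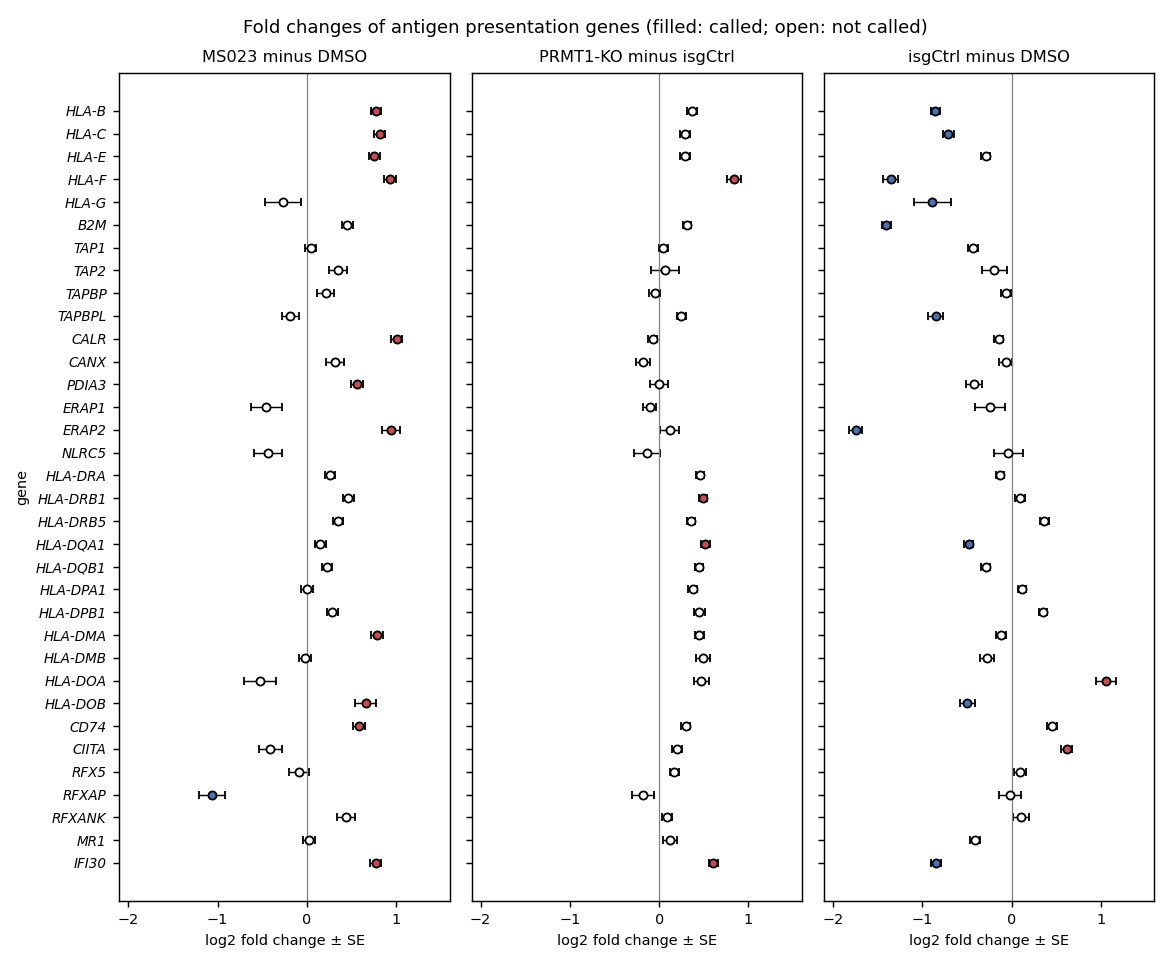
Log2 fold changes of the 34 antigen presentation genes that could be tested, with SE bars, in 3 comparisons. The x axis is the log2 fold change, red and blue points are called higher and lower, open points are not called, and HLA-G and HLA-DOB have no point for PRMT1-KO. MS023 has 12 called genes and PRMT1-KO has 4, the class II chains, editors and CD74 of PRMT1-KO lie close together between 0.30 and 0.52, and in isgCtrl against DMSO all 16 class I genes from HLA-B to NLRC5 lie left of 0.

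The second comparison asked what loss of PRMT1 did. In PRMT1-KO cells all class II chains were higher by a small and similar amount, and 7 of 7 passed the adjusted p, though 0 of 7 did so once any 1 sample was left out. HLA-F, HLA-DRB1, HLA-DQA1 and IFI30 were called, all higher, which is 4 of 32 genes tested (12.5%), where 0.781% of all 12285 genes were called, 0.415% higher and 0.366% lower. By the adjusted p alone 12 were higher (37.5%, against 0.676% of all genes). In 20 of the 32 every PRMT1-KO sample was above every isgCtrl sample (62.5%), where this was so in 9.11% of all genes. The median log2 fold change was 0.29, beside -0.04 for all genes. The 8 plasma cell markers summed to 627 to 631 TPM in PRMT1-KO and 653 to 667 in isgCtrl. MZB1 had a mean log2(TPM+1) of 0.955 against 1.584 and CD38 0.916 against 1.2. SDC1, XBP1 and IRF4 also had lower means, while TNFRSF17, SLAMF7 and PRDM1 had higher ones. The part of these markers in the values below was not tested.

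Both the calls and the adjusted p-values rest on all 6 samples. With 1 sample left out, the 12 members past the adjusted p alone became 0 or 1, and the 7 class II chains had limma adjusted p-values of 0.0869 to 0.135 with log2 fold changes of 0.35 to 0.54. Without any 1 of PRMT1-KO replicates 1, 2 and 3 or isgCtrl replicates 1 and 2 none was called, and without isgCtrl replicate 3 only HLA-F was, 0 to 1 in all, with limma adjusted p-values of 0.0439 to 0.0965 for HLA-F, 0.0869 to 0.1004 for HLA-DRB1, 0.0869 to 0.1045 for HLA-DQA1 and 0.0669 to 0.0907 for IFI30. The log2 fold changes stayed between 0.77 and 0.89 for HLA-F and between 0.48 and 0.50 for HLA-DRB1. In those 6 fits limma called 2 to 21 of all genes, and 1784 to 2005 had an unadjusted p under 0.05. With median-ratio scaling 9 genes were called, the added ones being HLA-DRA, HLA-DQB1, HLA-DPB1, HLA-DMA and HLA-DMB. The study had itself singled out some class II genes from these samples, so their direction here is no independent evidence.

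All 11 class II chains, DM and DO chains and CD74 that could be tested were higher in PRMT1-KO with no overlap between groups, by 0.30 to 0.52 on the log2 scale and a median of 0.45. HLA-DRB1, a beta chain of the DR molecule, read 10.17, 10.20 and 10.14 in isgCtrl and 10.63, 10.68 and 10.66 in PRMT1-KO, a log2 fold change of 0.49 ± 0.0462 (limma adjusted p = 0.0239). HLA-DQA1, the alpha chain of DQ, read 8.65, 8.60 and 8.61 against 9.10, 9.15 and 9.17, a change of 0.52 ± 0.0484 (limma adjusted p = 0.0239). Both sets of 3 were tight, with a gap between groups several times their spread.

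The other chains stayed under the fold limit. HLA-DRA, the alpha chain shared by DR molecules, had a log2 fold change of 0.46, HLA-DQB1 and HLA-DPB1 0.45 each, HLA-DPA1 0.37 and HLA-DRB5 0.36, all past the adjusted p. HLA-DMA gave 0.45, also past it, and HLA-DMB, HLA-DOA and CD74 gave 0.49, 0.47 and 0.30 with limma adjusted p-values of 0.0576, 0.0703 and 0.0597. The class II chains summed to 5472 ± 50.2 TPM in isgCtrl and 7474 ± 55.6 TPM in PRMT1-KO. HLA-DRB1 and HLA-DRB5 are near copies, and with their TPM added together the change was 0.44, under the fold limit.

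The promoter stretches above can be set beside these values. HLA-DQA1, whose window holds no exact Y box and no X box within 2 mismatches, had the largest fold change of the 11 (0.52). The other tested genes with a window but no pair were HLA-DMB, HLA-DPB1, HLA-DPA1 and CD74, at 0.49, 0.45, 0.37 and 0.30. The 5 tested genes with the pair, HLA-DRB1, HLA-DRB5, HLA-DQB1, HLA-DMA and HLA-DOA, lay between 0.36 and 0.49, inside the range of those without it. This is a description of these values, with no test. The split rests on the match cutoffs, and HLA-DMB, HLA-DPB1, HLA-DPA1 and CD74 each held an X box match. It therefore cannot show whether the pair matters for these changes. HLA-DOB was too low for the test in these groups, at 0.62, 0.59 and 0.62 in isgCtrl and 1.07, 0.76 and 0.46 in PRMT1-KO.

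**Figure D4:**
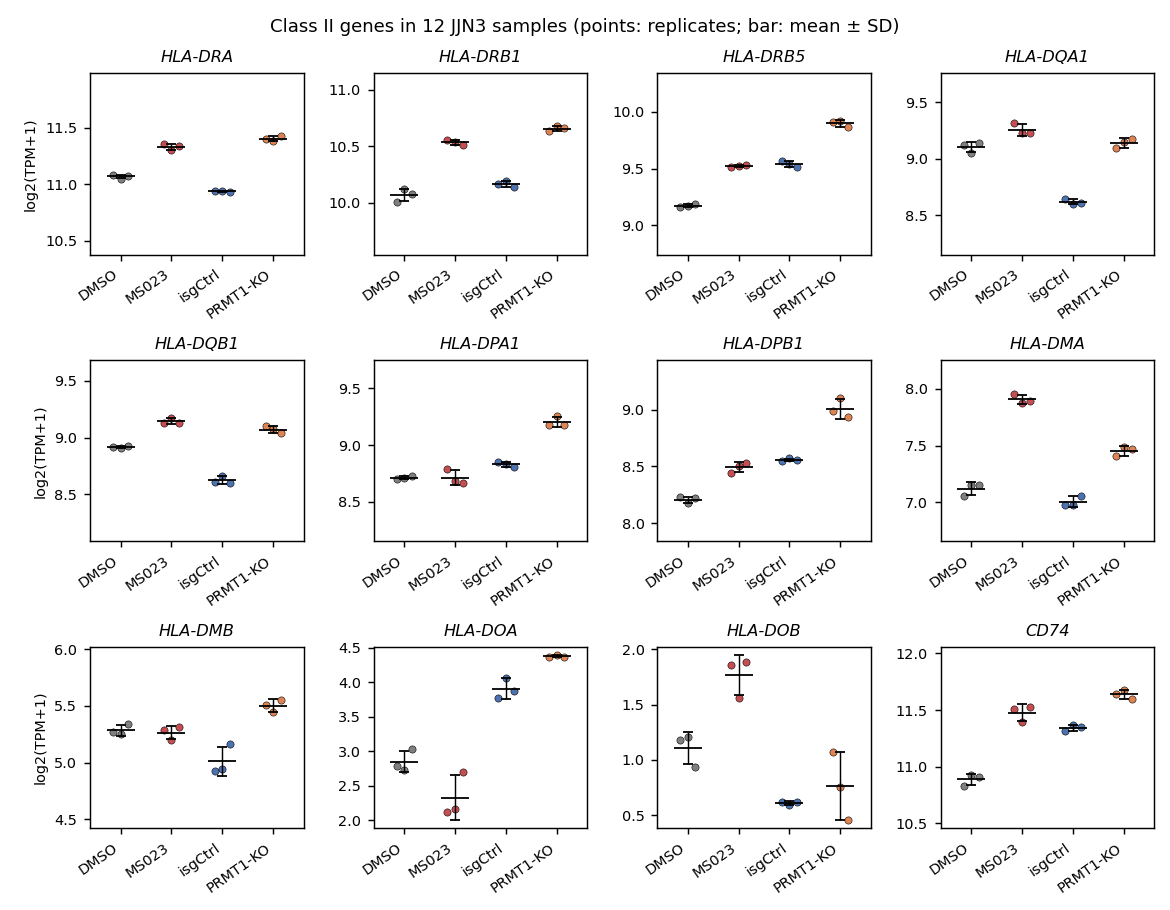
Class II chains, editors and the invariant chain in the 12 samples. Each panel is 1 gene, the y axis is log2(TPM+1) on a scale of its own, points are replicates and the bar is the mean ± SD. In every panel but HLA-DOB all 3 PRMT1-KO samples lie above all 3 isgCtrl samples, and HLA-DQA1, HLA-DQB1, HLA-DMA and HLA-DOB are highest in MS023.

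Of the class I heavy chains 1 of 4 tested was called in PRMT1-KO cells. HLA-F read 4.11, 4.17 and 3.93 in isgCtrl and 4.92, 4.94 and 4.87 in PRMT1-KO, a log2 fold change of 0.84 ± 0.0751 (limma adjusted p = 0.0214). HLA-B went from 9.43, 9.49 and 9.42 to 9.82, 9.87 and 9.75, a change of 0.36 ± 0.0545, and B2M from 11.47, 11.44 and 11.42 to 11.78, 11.72 and 11.77, a change of 0.31 ± 0.047. Both passed the adjusted p (0.0484 each, limma) without the fold limit. HLA-C and HLA-E each had 0.29, with no overlap but a limma adjusted p of 0.0966.

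The sum of heavy chains was 1364 ± 40.1 TPM in isgCtrl and 1725 ± 73.2 TPM in PRMT1-KO, a log2 fold change of 0.34 with a limma adjusted p of 0.0592 and so not called. HLA-G was too low to test, at 0.20, 0.14 and 0.71 against 1.16, 0.70 and 0.16. None of the 7 genes of peptide transport and loading passed the adjusted p by limma (1 had an unadjusted p under 0.05), and their changes lay between -0.18 (CANX) and 0.25 (TAPBPL). ERAP2 read 0.92, 0.82 and 0.99 against 0.82, 1.18 and 1.09 and overlapped, and ERAP1 and MR1 had changes of -0.11 and 0.12.

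IFI30 was the other called gene, at 6.75, 6.67 and 6.73 in isgCtrl and 7.32, 7.36 and 7.29 in PRMT1-KO, a log2 fold change of 0.61 ± 0.0503 (limma adjusted p = 0.0197). None of the 5 regulators passed the adjusted p by limma, and 2 had an unadjusted p under 0.05. CIITA read 4.51, 4.43 and 4.38 against 4.62, 4.60 and 4.69, and RFX5 6.97, 6.88 and 6.92 against 7.12, 7.10 and 7.07, in both cases without overlap but with changes of 0.20 and 0.17. RFXANK read 7.21, 7.07 and 7.09 against 7.20, 7.22 and 7.21, RFXAP 2.48, 2.25 and 2.01 against 2.05, 2.10 and 2.06, and NLRC5 3.97, 4.02 and 4.38 against 3.89, 4.20 and 3.87, all with overlap.

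**Figure D5:**
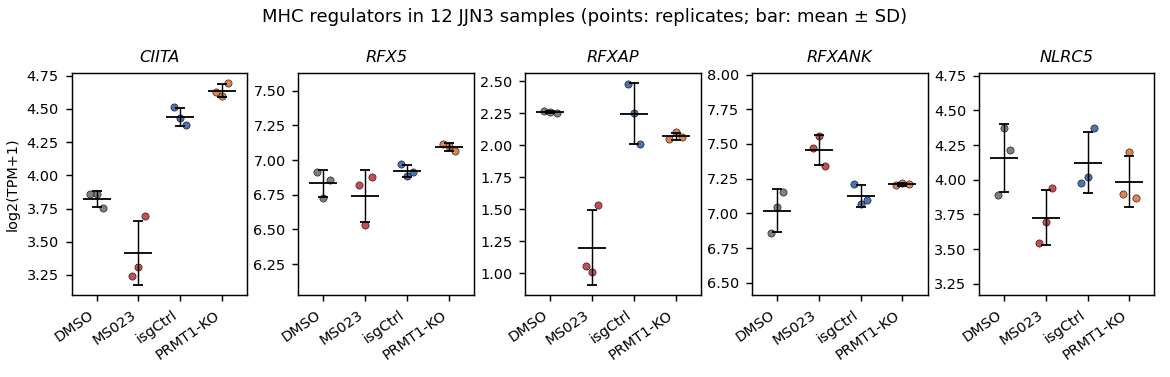
CIITA, the RFX subunits and NLRC5 in the 12 samples. The y axis is log2(TPM+1) on a scale of its own in each panel, points are replicates and the bar is the mean ± SD. RFXAP is lowest in MS023, CIITA is higher in both guide populations than in DMSO and MS023, and RFX5 and NLRC5 overlap between MS023 and DMSO.

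The 2 effects were then set against each other in 1 fit over all 12 samples. The difference (MS023 effect minus PRMT1-KO effect) was called in 9 of 34 genes (26.5%), where 24.4% of all 13256 genes were. It was higher in 5 (14.7%, beside 9.69% of all genes) and lower in 4 (11.8%, beside 14.7%). The MS023 effect was the larger for CALR by 1.08 ± 0.0668, ERAP2 by 0.83 ± 0.152, PDIA3 by 0.56 ± 0.115, HLA-C by 0.52 ± 0.0757 and CANX by 0.50 ± 0.129 on the log2 scale. It was the smaller for HLA-DOA, with a difference of -0.99 ± 0.209, RFXAP with -0.88 ± 0.203, CIITA with -0.61 ± 0.147 and HLA-DMB with -0.51 ± 0.0996. The limma adjusted p-values of these 9 ran from 2.54e-06 to 0.0125.

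Of the 7 class II chains none was called in that fit, but all 7 differences were below 0, from -0.37 to -0.01, and 4 passed the adjusted p. Of all 13256 genes 2816 passed the adjusted p downwards, and the median difference of all genes was -0.07. HLA-F and IFI30, called in both comparisons, differed between effects by 0.09 ± 0.0954 and 0.16 ± 0.0654, with limma adjusted p-values of 0.476 and 0.0783. The CANX call was lost without any 1 of MS023 replicate 3, DMSO replicate 2, PRMT1-KO replicate 1 or isgCtrl replicate 3, where the difference was 0.41 to 0.46. The HLA-DMB call was lost without any 1 of MS023 replicate 2, isgCtrl replicate 1 or isgCtrl replicate 2, where it was -0.48 to -0.47.

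The third comparison set the 2 control populations side by side, since MS023 is read against DMSO and PRMT1-KO against isgCtrl. It shares the DMSO samples with the first comparison and the isgCtrl samples with the second. isgCtrl cells had less class I RNA. Of 34 genes 12 were called (35.3%), where 13.9% of all 12661 genes were, with 10 lower (29.4%, beside 6.7%) and 2 higher (5.88%, beside 7.23%). Cas9, guide vector, selection, doxycycline and the solvent differ together between these groups and cannot be told apart.

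All 16 class I genes had a log2 fold change below 0, and 7 were called. HLA-G and ERAP2, and HLA-DOB of class II, had a mean above 1 in DMSO alone and so could only be tested where DMSO was high, and without these 3 the called genes were 5 of 14 in class I and 7 lower in all. B2M read 12.83, 12.87 and 12.84 in DMSO and 11.47, 11.44 and 11.42 in isgCtrl, or 7355 ± 116 against 2785 ± 44.9 TPM, and fell by 1.40 on the log2 scale (SE 0.0491, limma adjusted p = 7.15e-05). ERAP2 fell by 1.74 on the log2 scale (SE 0.0732), HLA-F by 1.35, HLA-B and TAPBPL by 0.85 each and HLA-C by 0.71. TAPBPL read 5.018, 4.999 and 5.260 in DMSO and 4.294, 4.195 and 4.244 in isgCtrl, with no overlap. HLA-G, at 1.04, 1.57 and 1.09 against 0.20, 0.14 and 0.71, had -0.89 ± 0.21, a call that was lost without isgCtrl replicate 1, isgCtrl replicate 2 or DMSO replicate 2 (-0.81, -0.78 and -0.72), and when all genes above 0 were tested (limma adjusted p = 0.0599).

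Class II genes did not share a direction there. Of the chains, HLA-DQA1 was lower, at 9.12, 9.05 and 9.14 in DMSO, a log2 fold change of -0.48 ± 0.0526, and 4 of 7 chains were above 0. HLA-DOA was higher, from 2.79, 2.74 and 3.03 to 3.78, 4.07 and 3.88, a change of 1.06 ± 0.113, and so was CIITA, by 0.62 ± 0.063. HLA-DOB, with -0.50 ± 0.0848, and IFI30, with -0.85 ± 0.0531, were lower. The HLA-DQA1 call was lost without isgCtrl replicate 2 or 3 or DMSO replicate 1 or 3, at -0.48 to -0.46, and the HLA-DOB call without DMSO replicate 1 or 2, at -0.46 and -0.45. PDIA3 was called without isgCtrl replicate 2, at -0.50. The class II to class I ratio was 4.01 ± 0.0906 in isgCtrl and 4.34 ± 0.166 in PRMT1-KO.

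Other cell-type markers also moved between the control populations. The plasma cell marker MZB1 had a mean log2(TPM+1) of 6.73 in DMSO and 1.58 in isgCtrl, SLAMF7 3.37 and 0.44, and CD38 2.57 and 1.20. TNFRSF17 had 7.42 and 7.01 and SDC1 6.68 and 6.57. IRF4 (6.58 and 7.31), PRDM1 (4.59 and 4.99) and XBP1 (7.81 and 7.94) went the other way. The summed level of the 8 plasma cell markers was 716 to 755 TPM in DMSO and 653 to 667 in isgCtrl. Erythroid markers, of which 2 of 3 were above 1 in some sample, summed to 3.49 to 5.91 TPM in DMSO and 12.9 to 19.3 in isgCtrl. The part of these in the class I values was not tested.

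By group, no member had its highest mean in isgCtrl and 18 of 35 had their lowest there, while 19 had their highest in MS023 and 10 in PRMT1-KO. Of the 5 class I heavy chains, 4 were highest in MS023 and 5 lowest in isgCtrl. Of the 7 class II chains, 5 were highest in PRMT1-KO. The order of groups was not counted over all genes, so it is not shown to be particular to these members. The 35 also include CD1D, HLA-G and HLA-DOB, whose values lie near the lower limit.

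Genes that work beside these members moved as follows. The endosomal proteases, which cut proteins and the invariant chain for class II, rose in 5 of 8 tested genes under MS023 (11.6% of all genes did), with log2 fold changes of 2.29 ± 0.067 for LGMN, 1.81 ± 0.0739 for CTSB, 1.01 for CTSD and 0.64 for CTSS. In PRMT1-KO 3 of 7 rose (0.415% of all genes did), CTSH by 0.80, LGMN by 0.78 and CTSS, the main invariant chain protease of presenting cells, by 0.61. LGMN read 5.54, 5.57 and 5.69 in DMSO, 7.89, 7.88 and 7.89 in MS023, 3.85, 3.91 and 3.79 in isgCtrl and 4.65, 4.61 and 4.62 in PRMT1-KO. In isgCtrl against DMSO 6 of 8 were lower (6.7% of all genes were), LGMN by the most, with a change of -1.75.

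The immunoproteasome and its activators, which make class I peptides, had 0 of 6 called under MS023 and 0 of 6 in PRMT1-KO by limma, with 1 and 2 at an unadjusted p under 0.05. At the adjusted p alone PSMB10 was higher under MS023 and no other was called in either direction. In isgCtrl against DMSO 1 of the 6, PSMB9, was lower, by 0.52 on the log2 scale (6.7% of all genes were lower).

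Of 9 genes of interferon and NF-kB input to MHC promoters, MS023 raised IRF8 by 1.43 ± 0.223 and IRF1 by 0.91 ± 0.108, and NFKB1 was lower, with a change of -0.49 ± 0.0789. With MS023 11.6% of all genes were called higher and 19.3% lower, which also stands beside the next list. None of the 7 tested in PRMT1-KO was called by limma (2 at an unadjusted p under 0.05), where 0.781% of all genes were. Of the 8 NF-Y, CREB and histone acetyltransferase genes, NFYB, a subunit of the Y box factor, and CREB1 were lower with MS023, with changes of -1.05 and -0.66. None of these 8 was called in PRMT1-KO by limma (2 at an unadjusted p under 0.05).

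Of 7 tested repressors and turnover factors, PRDM1, which is known to silence CIITA in plasma cells, was higher with MS023 (0.60 ± 0.106), and the Polycomb genes EZH2, EED and SUZ12 were lower (-0.94, -0.58 and -0.53). Of 8 genes of glycoprotein quality control, SEC61A1, HSPA5 and MOGS were higher with MS023 (1.01, 0.95 and 0.56). Among the other MHC genes and copies, MICA, a stress ligand of the NKG2D receptor, and the pseudogene HLA-H were higher (1.25 and 0.88) and HLA-K was lower (-0.79). Over all genes 11.6% were called higher and 19.3% lower with MS023. No gene of these 3 lists was called in PRMT1-KO by limma, with 3 of 22 at an unadjusted p under 0.05. HLA-H is nearly the same in sequence as the class I heavy chains, so reads can be split between them.

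All 35 members have a place in GENCODE v44 on GRCh38, and 19 of them lie on chromosome 6 between 29722775 and 33314284. Of the 35, 19 overlap a gene on the other strand, such as HLA-DPA1 and HLA-DPB1 with each other, and 11 overlap one on their own strand, such as TAPBPL with CD27. Where the counting does not use strand, reads from such pairs cannot be told apart. An exact permutation test of 1 gene with 3 samples against 3 cannot give a p below 0.1, so all p-values here come from limma across all genes.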

How the data were processed

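The authors deposited gene-level values as log2(TPM+1) for 12 JJN3 samples. By their methods and processing notes, reads were checked with FastQC, trimmed with Trimmomatic, mapped to the hg38 genome by STAR using GENCODE V35 annotation, and turned into gene values by Salmon. Versions were not given in the sources used here, and whether counting used strand was not stated. TPM are relative to all RNA of a sample, so a change in a few abundant genes shifts the others. Nothing upstream was run again.

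Groups came from the labels. Differences were fitted with limma 3.58.1 in R 4.3.3 (eBayes without trend) on the deposited values, with Benjamini-Hochberg adjustment over every gene whose mean was above 1 in either group. Calls needed adjusted p below 0.05 together with a log2 fold change beyond 0.48 either way, as in the study's methods. Scripts were tested on simulated data. Alternatives were other filters, scalings, pseudocounts, fits and left-out samples. Sample values are given for called members and regulators, and at most 4 called genes for each neighbouring list. One gene of a neighbouring list is not reported here. Members, lists and motifs were chosen with earlier results of these data known.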

Additional observations from a re-analysis of the deposited data

Results flagged for a closer look

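In 9 genes the effect of MS023 differed from that of PRMT1 knockout by a test of the difference itself (limma, 12 samples). That is 26.5% of the 34 members tested, where 24.4% of all genes were called. The difference in log2 fold change was higher for HLA-C (0.52), CALR (1.08), CANX (0.50), PDIA3 (0.56) and ERAP2 (0.83), and lower for HLA-DMB (-0.51), HLA-DOA (-0.99), CIITA (-0.61) and RFXAP (-0.88). The MS023 and PRMT1-KO effects are read against different control populations, and the isgCtrl to DMSO log2 fold changes of these genes ran from -1.74 (ERAP2) to 1.06 (HLA-DOA).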

How the results depend on the processing

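With no fold limit 22, 12, 21 and 19 members were called (MS023, PRMT1-KO, isgCtrl against DMSO, and the difference of effects), and with a log2 fold change above 1, 2, 0, 4 and 1. Leaving out 1 sample gave 12 to 16, 0 to 1, 10 to 11 and 8 to 10. Median-ratio scaling gave 9 in PRMT1-KO. Of all called genes, the share that was higher moved with it from 37.6% to 49.3% for MS023, 53.1% to 68.4% for PRMT1-KO, 51.9% to 41.7% for isgCtrl and 39.7% to 50.6% for the difference. All other counts, except the replicate block in PRMT1-KO, stayed within 1.5 times the one reported.

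The replicate numbers did not pair the samples. Deviations of same-numbered samples correlated at 0.02 to 0.10 for MS023 and DMSO, -0.14 to 0.07 for PRMT1-KO and isgCtrl and -0.23 to -0.03 for isgCtrl and DMSO, and 5, 2 and 0 of 6 samples correlated best with their own number. With the replicate block 13, 0, 11 and 9 members were called, HLA-DOA being added for MS023 (adjusted p = 0.0190) and HLA-G lost for isgCtrl (0.0633). In PRMT1-KO no gene of the table was called with it (limma, 2054 at an unadjusted p under 0.05), and the 4 members had adjusted p-values of 0.168.

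Values near 0 changed sign. For MS023, HLA-DPA1 was 0.104 with median-ratio scaling, 0.017 with quantile normalization and -0.039 to 0.024 without 1 sample, HLA-DMB 0.081, 0.086 and -0.044 to 0.013, RFX5 0.013 with median-ratio scaling and -0.158 to 0.015 without 1 sample, and MR1 -0.022 to 0.058. HLA-G became 0.794 when class I heavy chains were summed, since that is the value of the sum. For PRMT1-KO, PDIA3 was 0.037 with median-ratio scaling, 0.028 with quantile normalization and -0.078 to 0.078 without 1 sample, and TAP2 -0.066 to 0.181. For isgCtrl, RFXAP was 0.0073 with quantile normalization and -0.130 to 0.106 without 1 sample, and NLRC5 -0.170 to 0.071. The cause was not tested. Quantile normalization ended the calls of HLA-C, CANX and HLA-DMB in the difference and of HLA-DQA1 and HLA-DOB in isgCtrl. The labels give a minimum number of read pairs for all samples alike, and TPM hold no counts, so the counting error of HLA-G, HLA-DOB and RFXAP was not estimated.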
